A study of Arabidopsis thaliana with 8 samples.

Results

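The seeds of the double mutant *pkr2-2;pkl-10* were compared with seeds of the single mutant *pkl-1* for every gene in the expression table. The comparison used 4 of the 8 RNA-seq samples of the study, 2 of the double mutant and 2 of *pkl-1*. It describes what differs when *PKR2* (*AT4G31900*) is lost in a plant that already carries a lesion in *PKL* (*AT2G25170*). The deposited table holds 1 FPKM value (the fragments of a gene corrected for transcript length and for library size) per genotype, pooled over both samples by the authors, so there are no replicate values, no SD and no test for any difference given here.

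All plants were *Arabidopsis thaliana* of the Col-0 accession, grown in long days, and *pkr2-2* and Col-0 seeds were the other genotypes of the series. The double mutant carries 2 T-DNA insertions, *pkr2-2* (a SALK line) and *pkl-10* (a GABI line), whereas *pkl-1* was genotyped with primers that differ in their last base. The *PKL* lesion therefore differs between the groups in addition to *PKR2*, no *pkl-10* single mutant was analysed here, and the loss of *PKR2* and the change of *pkl* allele cannot be told apart in this comparison. Each sample held whole seeds from at least 30 siliques. The tissue label places the harvest at 4 days after pollination and the extraction protocol at 3, and the hour of harvest is not given in the sources used here. Because a seed holds embryo, endosperm and seed coat, fewer cells of a type and less RNA per cell cannot be told apart.

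PKL and PKR2 are CHD3 proteins, ATP-dependent remodelers that move or assemble nucleosomes. PKL is known for repressing embryonic genes such as *LEC1* after germination and for supporting trimethylation of lysine 27 on histone H3, the mark laid down by Polycomb complexes. PKR2 is its close relative, and its gene is known as an imprinted one that is active in the endosperm, the nourishing tissue around the embryo.

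The alleles that separate the groups are shown by the primers that read them. The lower-case sequences below are the genotyping primers that match the plant genome, written 5′ to 3′, and the capital marks the base that distinguishes the *pkl-1* allele from the wild type.
*pkr2-2* forward: ttctgatttttcaaccgatgg
*pkr2-2* reverse (WT): ggggaggagtatctggtgaag
*pkl-10* forward: tgcggtttgtttctcctctcg
*pkl-10* reverse (WT): tgtttcagagacccaaaatcgtg
*pkl-1* forward: agcattctgtgcccaactga
*pkl-1* reverse (WT): caattcgctcgtactgccattaC
*pkl-1* reverse (mutant): caattcgctcgtactgccattaT
On the TAIR10.1 assembly, the *pkl-1* pair lies in *PKL*, the forward primer at chr2:10718010-10718029 in intron 15 of 30 and the reverse primers at chr2:10718599-10718621 on the minus strand, across an exon-intron border. Counted from 1 at the 5′ end of the primer, the mutant primer differs from the wild-type one by C23T, at position 10718599. Apart from that base, both carry 1 further mismatch to the reference. The *pkl-10* pair spans chr2:10714548-10715451, near the start of the same gene. The *pkr2-2* pair lies in coding exons of *PKR2* on chromosome 4, the forward primer in exon 10 of 31 and the reverse primer in exon 6. The T-DNA border primers are vector sequence and are not shown.

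The transcripts of both remodeler genes were low in the double mutant. *PKR2* measured 0.137 FPKM in the double mutant and 2.62 FPKM in *pkl-1*, a difference of -1.67 on the log2(FPKM + 1) scale used for all differences here. *PKL* was at 2.78 FPKM in double-mutant seeds and 18.1 FPKM in *pkl-1*, a difference of -2.34. Reads over *PKL* can also come from the overlapping *AT2G25169*, since the library is not stated to keep the strand. The *pkl-1* seeds thus held *PKL* RNA, and in their own table against the wild type they had 15.2 FPKM of it, against 12.8 FPKM in Col-0. The other CHD-type genes examined were close to equal, with *PKR1* at 5.65 FPKM in the double mutant and 4.77 FPKM in *pkl-1* (0.20), and *CHR5* at 3.67 and 3.19 FPKM in the same order of genotypes (0.15). The CHD3 gene *PKR3* was not examined.

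Of 38209 genes listed, 19040 had at least 1 FPKM in either genotype and were counted. A gene was taken as past the fold when its difference was 1 or more in either direction. By this rule 436 genes were higher in the double mutant (2.29% of those counted) and 416 were lower (2.18%), and the median over all counted genes was 0.05. At a difference of 2 or more, 76 genes were higher (0.399%) and 98 lower (0.515%). These percentages are the background against which the gene lists below are read. They include transcripts that do not encode protein, whereas most lists hold protein-coding genes, for which the shares are lower (next paragraph).

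Many of these genes do not encode protein. Of 704 such transcripts counted, 103 were higher and 110 lower in the double mutant, together 30.3%. Of 18336 protein-coding genes counted, 333 were higher and 306 lower. In addition, 212 counted genes were listed at exactly 0 in one genotype, 106 in each direction. Some of these zeros stood against values of 100 FPKM or more, as in 8 genes of which 6 have transcripts under 300 nt, so a 0 in these tables can be a failed estimate and no fold is given against it. Without organelle genes, such zeros and transcripts under 300 nt, 18146 protein-coding genes remained, of which 279 were higher (1.54%) and 232 lower (1.28%). Most of this set lay close to 0, with the 5th percentile at -0.52 and the 95th at 0.64.

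**Figure D1:**
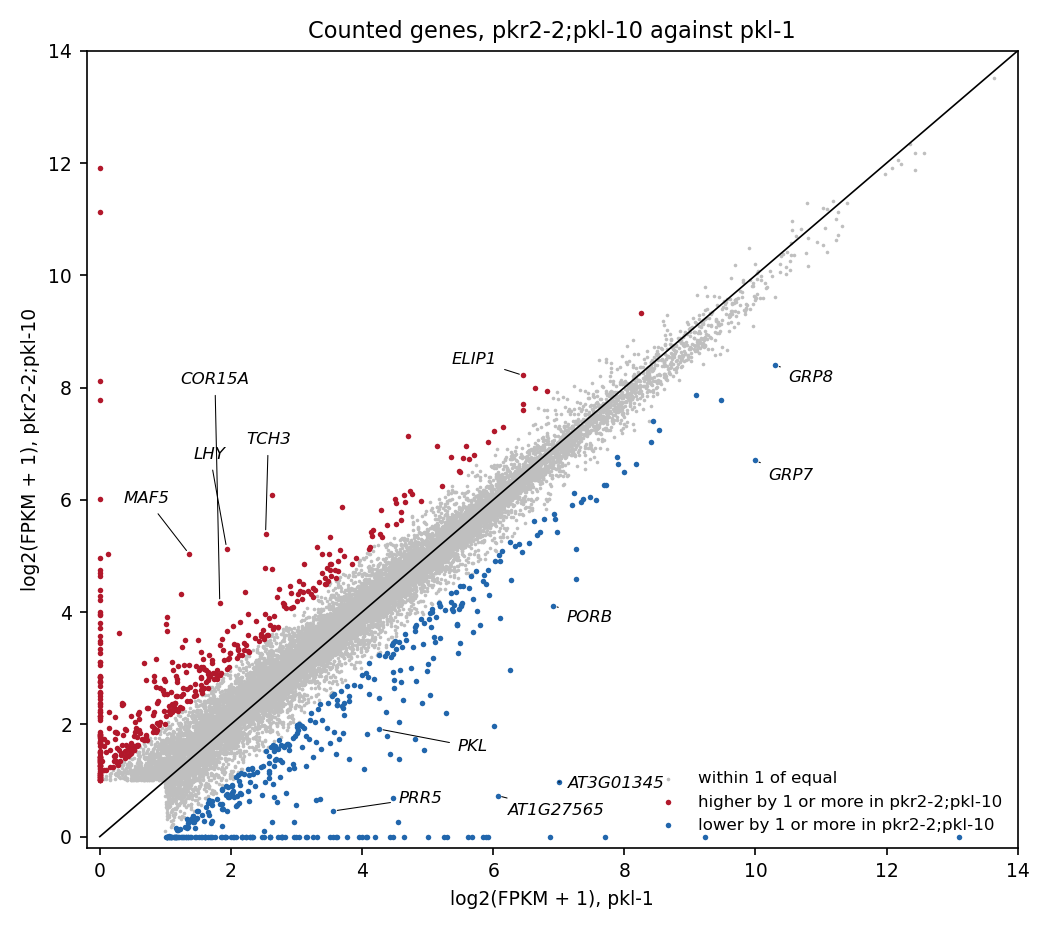
log2(FPKM + 1) with *pkr2-2;pkl-10* on the vertical axis and *pkl-1* on the horizontal one, for the 19040 counted genes, with 1 point a gene and equality as the line. Red points are the 436 genes higher by 1 or more in the double mutant and blue points the 416 lower, with points on an axis listed at 0 in one genotype.

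The double mutant was estimated to be sequenced more deeply, though reads were not counted and the scaling of FPKM enters the estimate. From the steps between the smallest FPKM values of long transcripts, its pooled depth was estimated at 1.297 times that of *pkl-1*. The fragment numbers that follow from these steps are approximate, because 97.0% of the low values of the double mutant but only 76.8% of those of *pkl-1* fell within 0.15 of a whole number. The 95% exact counting intervals given below are for the log2 ratio of the FPKM without a pseudocount, and cover counting error only, not the variation between plants.

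Genes of the circadian clock moved in opposite directions according to the time of day at which they peak. The plant clock is a ring of repressors and activators: *CCA1* and *LHY*, a pair of MYB-like factors most abundant around dawn, repress genes expressed in the evening through a promoter sequence called the evening element, and the PRR proteins and the evening complex repress the morning genes in turn. In the double mutant, 5 of 12 counted morning-phased genes were higher and 0 lower, with a median of 0.64. Of 11 counted evening-phased genes, 0 were higher and 5 lower, with a median of -0.89. Against a background of 2.29% higher and 2.18% lower, these are 41.7% of the morning list and 45.5% of the evening list. The hour of harvest is not given for any genotype, so its part in these differences cannot be told apart from that of genotype.

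Among the morning genes, *LHY* (*AT1G01060*) measured 34.0 FPKM in the double mutant and 2.83 FPKM in *pkl-1*, a difference of 3.19. The counting interval of its log2 ratio was 3.42 to 3.76. *CCA1* (*AT2G46830*) was at 12.4 FPKM in double-mutant seeds and 3.09 FPKM in *pkl-1* (1.71). *PRR9*, a day-phased repressor of *CCA1* and *LHY*, measured 8.01 FPKM in the double mutant and 1.99 FPKM in *pkl-1* (1.59). *RVE8* and *LNK2* encode partners in an activating complex of the clock. *RVE8* had 5.78 FPKM in the double mutant and 1.26 FPKM in *pkl-1* (1.58), and *LNK2* had 19.2 FPKM in the double mutant and 6.56 FPKM in *pkl-1* (1.42). The other 7 morning genes were not past the fold, with differences from -0.09 for *RVE7* to 0.67 for *LNK1*.

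Among the evening genes, *PRR5* (*AT5G24470*) was at 0.372 FPKM in double-mutant seeds and 10.8 FPKM in *pkl-1*, a difference of -3.10 with a counting interval of -5.50 to -4.31 for the log2 ratio. *FKF1* (*AT1G68050*), a blue-light receptor that targets repressors of flowering for degradation, measured 0.582 FPKM in the double mutant and 9.31 FPKM in *pkl-1* (-2.70). *ELF4* and *LUX* encode subunits of the evening complex. *ELF4* was at 2.48 FPKM in double-mutant seeds and 19.9 FPKM in *pkl-1* (-2.59), and *LUX* measured 5.75 FPKM in the double mutant and 23.1 FPKM in *pkl-1* (-1.84). *TOC1*, the evening repressor of *CCA1* and *LHY*, was at 6.33 FPKM in double-mutant seeds and 15.02 FPKM in *pkl-1* (-1.13). *BOA*, *GI* and *ELF3* were also below 0 but not past the fold, at -0.89, -0.80 and -0.68, and the highest member was *ZTL*, an F-box relative of *FKF1*, at 0.23.

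Output genes of the clock moved in both directions. *GRP7* (*AT2G21660*) and *GRP8* encode glycine-rich RNA-binding proteins that cycle with an evening peak. *GRP7* measured 103 FPKM in the double mutant and 1020 FPKM in *pkl-1*, a difference of -3.29 resting on about 4577 and 34931 fragments in that order. *GRP8* was at 336 FPKM in double-mutant seeds and 1262 FPKM in *pkl-1* (-1.90). *COR27* and *COR28*, clock-controlled genes that are also induced by cold, were lower too, *COR27* with 1.31 FPKM in the double mutant and 6.36 FPKM in *pkl-1* (-1.67) and *COR28* with 0.558 FPKM in the double mutant and 3.87 FPKM in *pkl-1* (-1.64). Higher in the double mutant were *COL1* (11.1 FPKM, against 3.78 FPKM in *pkl-1*, 1.33), *COL2* (9.15 FPKM, against 3.31 FPKM, 1.24) and *CDF2* (12.04 FPKM, against 5.24 FPKM, 1.06), relatives of the flowering regulator *CO* and one of its Dof-type repressors. In all, 3 of 12 counted output genes were higher and 4 lower.

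**Figure D2:**
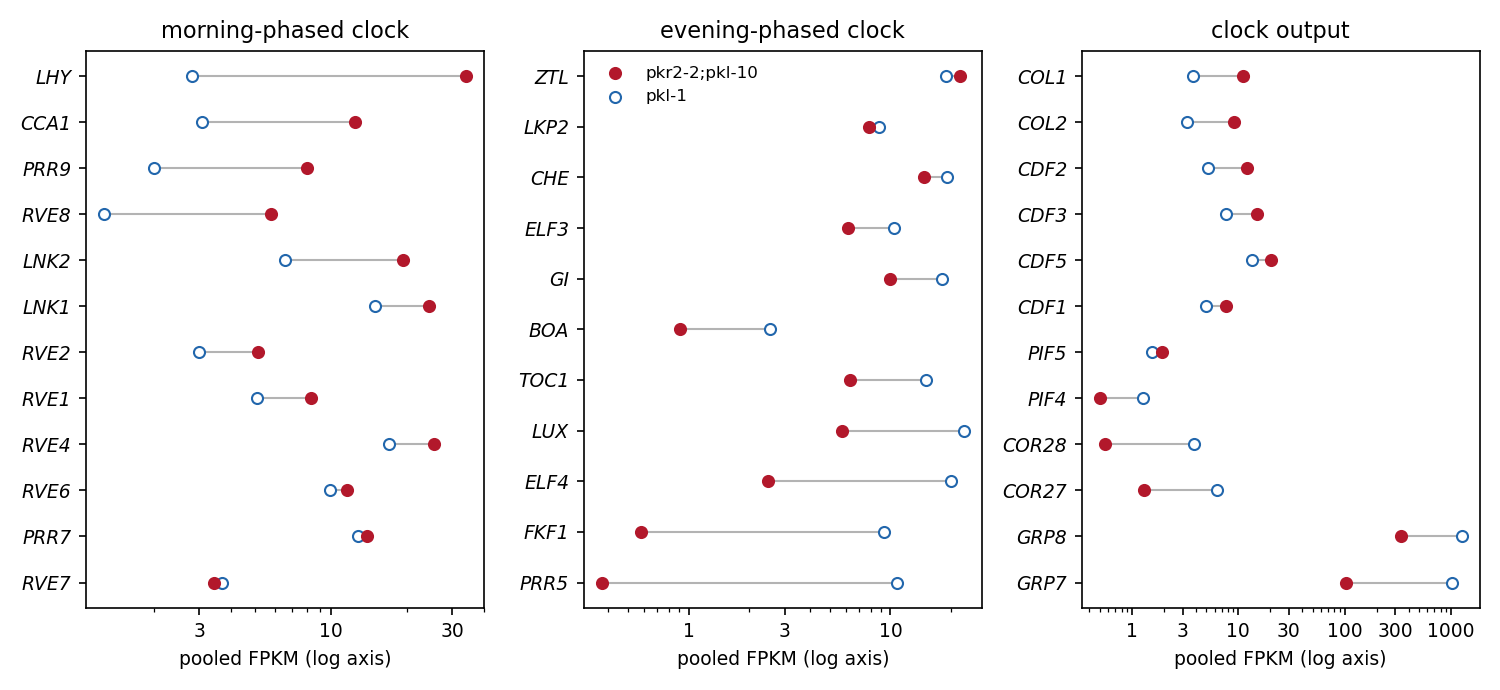
Pooled FPKM of the counted clock genes on a log axis, filled circles for the double mutant and open circles for *pkl-1*, with 1 row a gene and panels for the morning-phased, evening-phased and output lists. *LHY* lies at 34.0 FPKM in the double mutant, against 2.83 FPKM in *pkl-1*, and *PRR5* at 0.372 FPKM in the double mutant, against 10.8 FPKM in *pkl-1*.

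The windows of 250 nt just upstream of the annotated gene starts (TAIR10.1) are shown for the clock genes that carry this pattern, because the evening element is the sequence through which CCA1 and LHY act. Each is written 5′ to 3′ on the strand of its gene. Capitals mark the motifs searched on both strands: the evening element AAAATATCT (which reads AGATATTTT on the other strand), the CCA1-binding site AAAAATCT (AGATTTTT), the G-box CACGTG, the W-box TTGACC or TTGACT, and the heat shock element GAANNTTC. The morning genes *LHY* (chr1:37872-38121, minus), *CCA1* (chr2:19245341-19245590, plus) and *PRR9* (chr2:19232357-19232606, plus) read as follows.
*LHY*: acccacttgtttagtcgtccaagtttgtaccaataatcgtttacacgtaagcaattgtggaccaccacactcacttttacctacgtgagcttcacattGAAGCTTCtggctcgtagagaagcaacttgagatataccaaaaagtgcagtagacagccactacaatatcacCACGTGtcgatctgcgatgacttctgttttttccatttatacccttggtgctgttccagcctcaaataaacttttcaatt
*CCA1*: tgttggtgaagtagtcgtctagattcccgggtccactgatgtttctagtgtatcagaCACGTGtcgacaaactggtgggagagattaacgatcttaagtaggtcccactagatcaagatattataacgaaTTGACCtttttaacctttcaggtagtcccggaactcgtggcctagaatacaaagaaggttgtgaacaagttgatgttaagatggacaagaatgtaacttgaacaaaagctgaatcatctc
*PRR9*: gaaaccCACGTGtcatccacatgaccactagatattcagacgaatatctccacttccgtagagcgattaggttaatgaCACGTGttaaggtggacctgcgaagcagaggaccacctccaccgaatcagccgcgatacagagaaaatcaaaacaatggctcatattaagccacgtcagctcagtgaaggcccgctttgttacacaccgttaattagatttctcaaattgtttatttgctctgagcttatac
The evening genes *PRR5* (chr5:8358547-8358796, minus), *FKF1* (chr1:25508389-25508638, plus), *LUX* (chr3:17182792-17183041, plus) and *TOC1* (chr5:24674713-24674962, plus) and the output gene *GRP7* (chr2:9266558-9266807, minus) read as follows.
*PRR5*: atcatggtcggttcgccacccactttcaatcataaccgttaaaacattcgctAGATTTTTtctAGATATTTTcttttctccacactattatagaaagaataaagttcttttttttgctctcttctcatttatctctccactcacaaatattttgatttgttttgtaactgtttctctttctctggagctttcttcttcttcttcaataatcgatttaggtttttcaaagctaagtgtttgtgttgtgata
*FKF1*: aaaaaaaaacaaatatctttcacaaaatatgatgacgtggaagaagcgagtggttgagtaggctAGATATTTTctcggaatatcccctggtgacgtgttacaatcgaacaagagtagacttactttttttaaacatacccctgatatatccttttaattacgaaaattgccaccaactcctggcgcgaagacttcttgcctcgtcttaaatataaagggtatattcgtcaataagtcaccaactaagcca
*LUX*: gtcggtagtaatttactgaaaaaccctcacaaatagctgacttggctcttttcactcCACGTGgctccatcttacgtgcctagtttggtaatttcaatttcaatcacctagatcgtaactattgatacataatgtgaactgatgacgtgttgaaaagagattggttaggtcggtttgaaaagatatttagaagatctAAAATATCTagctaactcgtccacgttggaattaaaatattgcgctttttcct
*TOC1*: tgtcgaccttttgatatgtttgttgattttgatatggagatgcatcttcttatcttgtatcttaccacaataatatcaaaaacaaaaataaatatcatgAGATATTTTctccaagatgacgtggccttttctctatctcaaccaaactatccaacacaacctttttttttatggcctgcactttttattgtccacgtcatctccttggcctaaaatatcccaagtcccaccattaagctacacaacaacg
*GRP7*: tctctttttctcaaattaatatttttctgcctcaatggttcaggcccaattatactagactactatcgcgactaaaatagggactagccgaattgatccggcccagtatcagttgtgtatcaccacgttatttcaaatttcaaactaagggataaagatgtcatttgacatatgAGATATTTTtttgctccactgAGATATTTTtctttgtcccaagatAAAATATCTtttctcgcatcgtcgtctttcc
The evening element is present in 4 of the 5 evening genes that fell and in 0 of the 5 morning genes that rose. The exception is *ELF4*, whose window opens with the element less its first letter. It also occurs upstream of 3 of the 4 output genes that fell, with 3 copies in *GRP7*, 2 in *COR27* and 1 in *GRP8*, and of 1 of the 3 output genes that rose (*COL2*). Over 27437 windows of the same length upstream of protein-coding genes, 2.36% hold it. Clock genes within the fold were not read for it. These shares therefore do not set the evening genes that fell apart from the other evening genes. The G-box is in 3 of the 5 morning genes, against 6.49% of all windows, with 2 copies in *PRR9*. *PRR5* holds, besides its evening element, a CCA1-binding site, which 6.69% of windows hold. A match describes the letters only, and binding was not measured.

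The *pkr2-2* single mutant was measured against Col-0 in a separate table that shares no library with this comparison, and there too the groups differ by the *pkr2-2* allele. *FKF1* was at 2.16 FPKM in *pkr2-2* and 31.8 FPKM in Col-0 (-3.38), and *GRP7* at 464 FPKM in *pkr2-2* and 3630 FPKM in Col-0 (-2.96). *TOC1*, *PRR5*, *LUX* and *ELF4* were also past the fold, at -1.73, -1.42, -1.28 and -1.02. The evening list had 6 genes lower and a median of -1.02 in *pkr2-2*. Of the 12 morning genes, 1 was past the fold there (*PRR9*, 1.03), the median was 0.53, and *LHY* was at 2.55 FPKM in *pkr2-2* and 1.301 FPKM in Col-0 (0.62). Of 18124 genes counted between *pkr2-2* and Col-0, 3.22% were higher and 2.07% lower.

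The tables against Col-0 share libraries with the comparison described here, so their values are placed side by side only. Over Col-0, *LHY* differed by 3.62 in the double mutant and by 0.47 in *pkl-1* seeds. *GRP7* differed by -5.53 in the double mutant, against -2.22 for *pkl-1*. For *PRR5* the difference was -3.19 in double-mutant seeds and -0.19 for *pkl-1*.

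Among the other lists, that of *FLC*, the *MAF* genes and *AT2G22540*, which are MADS-box floral repressors, had 1 of 5 counted members past the fold. That gene was *MAF5* (*AT5G65080*), with 31.9 FPKM in the double mutant and 1.57 FPKM in *pkl-1* (3.68), which was listed at 0 in Col-0. In *pkr2-2* it was at 3.15 FPKM. Its neighbour *MAF4* measured 8.98 FPKM in the double mutant and 4.05 FPKM in *pkl-1* (0.98), and *FLC* was below the level for counting in both.

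In the heat shock, defence, jasmonate and cold lists some members rose and 0 fell. The small heat shock proteins are chaperones that bind unfolding proteins. Of 12 members of the heat shock list 6 were counted and 3 were higher, while 2.29% of all counted genes were higher. These 3 were below 1 FPKM in *pkl-1* and were counted through the double mutant alone, so their number among those counted depends on the filter. *HSP17.6II* was at 2.21 FPKM in double-mutant seeds and 0.0804 FPKM in *pkl-1* (1.57), while *HSP17.4* and *HSP17.6A* had 4.94 and 4.87 FPKM in the double mutant and were listed at 0 in *pkl-1*. A 0 can be a failed estimate, so no fold is given for *HSP17.4* or *HSP17.6A*. The gene *HSP17.4* overlaps the non-coding *AT3G07365*, also higher in the double mutant. *HSP70*, *HSP90.1* and *HSP101* were within 0.45 of equal.

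WRKY transcription factors act in defence and wounding. Of 10 members of the defence list 6 were counted and 4 were higher (66.7% of those counted, against 2.29% of all counted genes). Among these, *WRKY46*, *WRKY40* and *WRKY33* were below 1 FPKM in *pkl-1* and were counted through the double mutant alone, so the share depends on the filter. These were *WRKY46* with 5.82 FPKM in the double mutant and 0.988 FPKM in *pkl-1* (1.78), *WRKY40* with 3.55 and 0.502 FPKM in the same order (1.6), *WRKY33* with 3.87 and 0.641 FPKM (1.57), and *WRKY53* with 6.95 and 2.01 FPKM (1.40). The defence marker genes *PR1* and *PDF1.2* were listed at 0 in both genotypes. In *pkr2-2* against Col-0, 2 members of the list were counted and 0 were past the fold, and *WRKY46* was at 0.790 FPKM in *pkr2-2* and 1.14 FPKM in Col-0 (-0.26).

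Jasmonate is a wound hormone made from chloroplast lipids. Its list had 3 of 7 members higher (42.9%, against 2.29% of all counted genes): *JAZ10*, a repressor of the response, at 3.91 FPKM in the double mutant and 0.670 FPKM in *pkl-1* (1.55), and the biosynthetic genes *LOX2* at 129.7 FPKM in the double mutant and 59.7 FPKM in *pkl-1* (1.11), and *AOS* at 21.5 FPKM in the double mutant and 9.88 FPKM in *pkl-1* (1.05). *JAZ10* was below 1 FPKM in *pkl-1* and so was counted through the double mutant alone. Of 9 counted cold response genes, *COR15A* (*AT2G42540*), which encodes a chloroplast protein that protects membranes during freezing, was the one past the fold. It measured 16.9 FPKM in the double mutant and 2.56 FPKM in *pkl-1* (2.33), and the table of *pkl-1* against the wild type had 2.13 FPKM in *pkl-1* and 17.9 FPKM in Col-0. *CBF1*, *CBF2* and *CBF3*, the transcription factors that activate it in the cold, were below 1 FPKM in both genotypes.

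Carbon starvation genes had 1 of 10 counted members lower, the raffinose synthase family gene *DIN10*, with 8.10 FPKM in the double mutant and 32.8 FPKM in *pkl-1* (-1.89). In *pkr2-2* against Col-0 this list had 6 members lower and 0 higher, among them *DIN10* (-3.0) and the kelch repeat gene *KMD1*, which was at 1.45 FPKM in *pkr2-2* and 30.6 FPKM in Col-0 (-3.69). In the comparison of the double mutant with *pkl-1*, *KMD1* was at 4.35 and 7.24 FPKM in that order (-0.62).

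**Figure D3:**
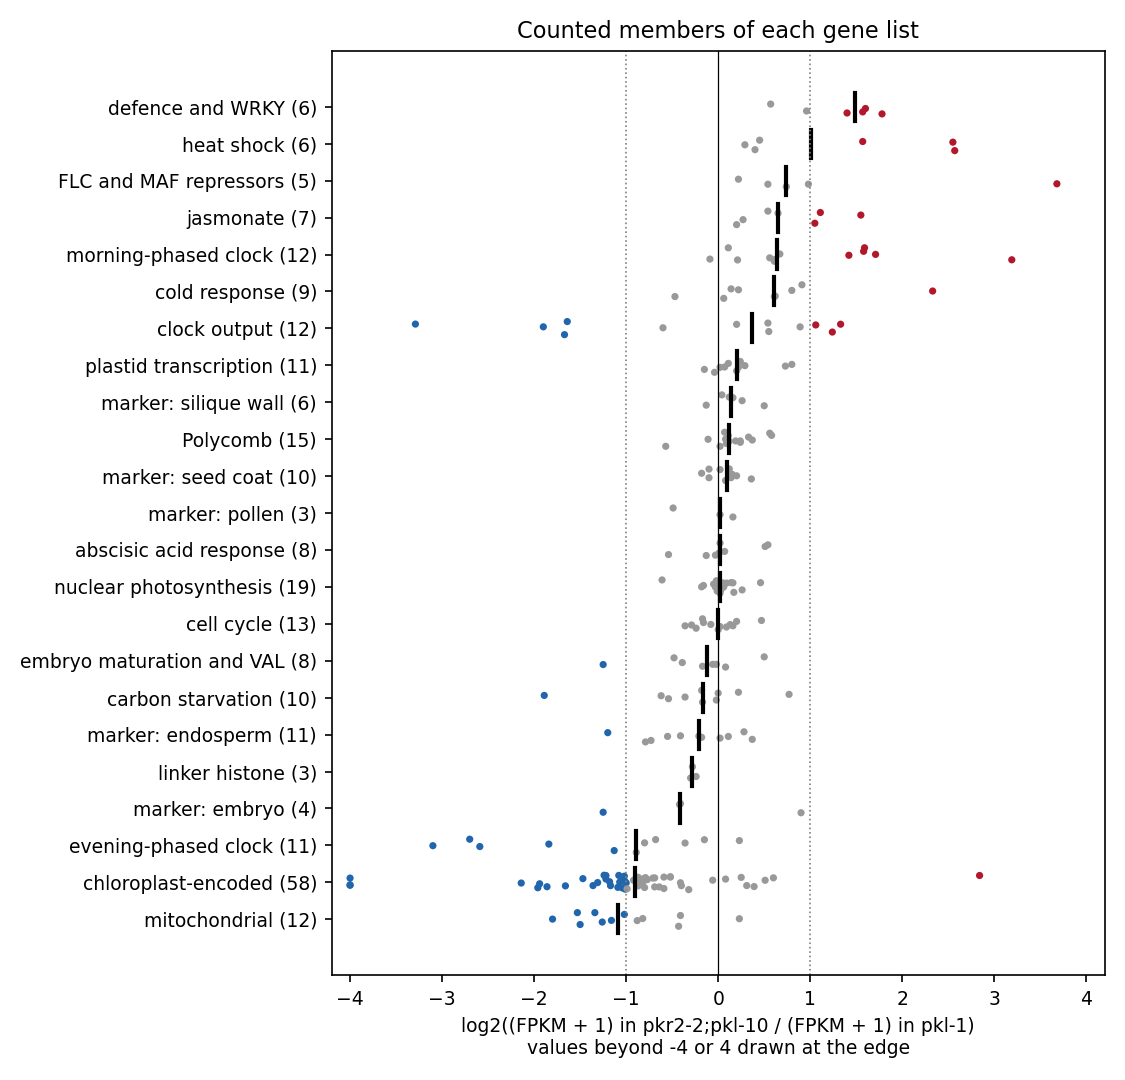
Differences in log2(FPKM + 1), the double mutant over *pkl-1*, for the counted members (points) of the lists fixed by locus and of the organelle genomes, with the list median (bar), dotted lines at the fold and values beyond 4 drawn at the edge. The morning-phased list has a median of 0.64 and the evening-phased list -0.89, while nuclear photosynthesis sits at 0.02.

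The embryo and endosperm markers had medians below 0, with members on both sides of it. Of 4 counted embryo markers 1 was lower (25%) with a median of -0.42, and of 11 counted endosperm markers 1 was lower (9.09%) with a median of -0.21. Above 0 were 1 embryo marker, at 0.9, and 4 endosperm markers, at most at 0.37, and none of these was past the fold. *LEC1* (*AT1G21970*), a master regulator of embryo development and the best-known gene repressed by PKL, was at 6.202 FPKM in double-mutant seeds and 16.1 FPKM in *pkl-1* (-1.25), and the subtilase gene *ALE1*, expressed in the endosperm, measured 2.05 FPKM in the double mutant and 6.01 FPKM in *pkl-1* (-1.20). Over Col-0, the difference of *LEC1* was -3.97 in double-mutant seeds and -2.72 for *pkl-1*. The summed FPKM of the 6 embryo markers was 14.3 in double-mutant seeds and 23.0 in *pkl-1*, and that of the 12 endosperm markers was 108 for the double mutant and 138.5 for *pkl-1*. *LEC1* is among the 6 embryo markers, and its fall in FPKM was larger than that of their sum. The lower sum therefore rested on *LEC1*, and the sum of the other embryo markers was higher in the double mutant than in *pkl-1*. The 10 seed coat markers summed to 2120 FPKM in the double mutant and 2100 FPKM in *pkl-1*, the 6 silique wall markers to 472 and 451 FPKM, and the 5 pollen markers to 12.9 and 14.8 FPKM in the same order. No seed coat, silique wall or pollen marker was past the fold, and the seed coat gene *BAN* was at 974 FPKM in double-mutant seeds and 1043 FPKM in *pkl-1*. The part that the amounts of embryo and endosperm have in other results was not tested. Seed storage protein and oleosin genes, which come on later in seed filling, had 1 of 12 members counted.

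Several other lists had 0 members past the fold, while 4.47% of all counted genes and 3.48% of the protein-coding ones were past it in either direction. They were 15 Polycomb genes (median 0.12, with *CLF* highest at 0.58), 3 linker histones (median -0.28), 13 cell cycle genes (median 0.00) and 8 abscisic acid response genes (median 0.02). At such shares, lists this short would hold few such genes or none. Embryo maturation regulators and VAL repressors had 1 of 8 counted members lower (12.5%), which was *LEC1*. All 40 counted xyloglucan-modifying enzymes and expansins, which loosen the cell wall, were also within the fold. Of 74 pectin methylesterase and inhibitor genes 2 were higher and 6 lower, and of 55 pectate or pectin lyase genes 0 were higher and 3 lower. *AT5G62360*, an invertase or pectin methylesterase inhibitor gene, measured 75.6 FPKM in the double mutant and 206.5 FPKM in *pkl-1* (-1.44), and *AT2G45220*, of the same superfamily, at 16.2 FPKM in the double mutant and 44.7 FPKM in *pkl-1* (-1.41). Nuclear genes annotated as ribosomal proteins showed a small common shift, with 277 of 308 counted genes below 0, a median of -0.29 and 2 past the fold.

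Families taken from the annotated product names, chosen after their values were seen, included some with calls in both directions. Of 26 counted genes with a carbohydrate-binding X8 domain, 4 were higher and 6 lower in the double mutant. The neighbouring genes *AT5G63230*, *AT5G63240* and *AT5G63250* were all lower. *AT5G63250* had 4.77 FPKM in the double mutant and 31.8 FPKM in *pkl-1* (-2.51), and *AT5G63230* had 62.8 FPKM in the double mutant and 189.5 FPKM in *pkl-1* (-1.58). The opposite direction was seen in *AT4G16165*, with 105.5 FPKM in the double mutant and 48.8 FPKM in *pkl-1* (1.1). Of 11 counted thionin genes, which encode small antimicrobial peptides, 2 were higher and 1 lower. Lower was *AT1G53282*, listed at 0 in the double mutant and at 3.88 FPKM in *pkl-1*. The higher ones were *AT1G30974*, with 57.6 FPKM in the double mutant and 11.96 FPKM in *pkl-1* (2.18), and *AT1G30972*, with 34.9 FPKM in the double mutant and 8.98 FPKM in *pkl-1* (1.85).

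Transcripts encoded in the chloroplast were mostly lower in the double mutant. Of 58 counted chloroplast genes 1 was higher and 27 lower in the double mutant, with 51 below 0 and a median of -0.90. Restricting them to transcripts of at least 300 nt left 46, of which 0 were higher and 22 lower, with 45 below 0 and a median of -0.95. The exception was *ndhE*, at 7.44 FPKM in the double mutant and 5.82 FPKM in *pkl-1* (0.31). The median was below 0 in every functional class, from the ATP synthase genes (median -1.02) to the ribosomal protein genes (median -1.03) and the NADH dehydrogenase genes (median -0.67).

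*rbcL*, the large subunit of Rubisco, was at 9.12 FPKM in double-mutant seeds and 21.9 FPKM in *pkl-1* (-1.18). *psbC*, an inner antenna protein of photosystem II, measured 4.03 FPKM in the double mutant and 11.9 FPKM in *pkl-1* (-1.36). *ndhC* had the largest fall among those of at least 300 nt, with 0.624 FPKM in the double mutant and 5.34 FPKM in *pkl-1* (-1.96). *psbA*, the reaction centre protein D1, was not past the fold at 7.04 FPKM in the double mutant and 13.7 FPKM in *pkl-1* (-0.87), and *rpoB*, a subunit of the plastid RNA polymerase, was nearly equal with 1.48 FPKM in the double mutant and 1.58 FPKM in *pkl-1* (-0.06).

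Mitochondrial transcripts were also lower. Of 12 counted, 0 were higher and 7 lower, with a median of -1.09. The ribosomal RNA gene *rrn26* was at 99.2 FPKM in double-mutant seeds and 287 FPKM in *pkl-1* (-1.53), and *rps3* of the mitochondrion measured 4.52 FPKM in the double mutant and 18.16 FPKM in *pkl-1* (-1.80), whereas *nad5* was at 16.6 FPKM in double-mutant seeds and 14.1 FPKM in *pkl-1* (0.23). In *pkr2-2* against Col-0 the medians were 0.12 for the chloroplast list and 0.27 for the mitochondrial list. Of the chloroplast genes named above, *pkl-1* differed from Col-0 by -1.03 for *rbcL*, -1.63 for *psbC*, -0.55 for *ndhC*, -0.48 for *psbA*, -1.14 for *rpoB* and -0.57 for *ndhE*. Others were above Col-0 in *pkl-1*, such as *ycf1* (0.63). For the mitochondrial genes *rrn26*, *rps3* and *nad5* these differences were -1.42, 0.26 and -0.06. The libraries were made with selection on oligo(dT) and with depletion of ribosomal RNA. The nuclear 18S rRNA gene *AT3G41768* was listed at 3832 FPKM in the double mutant and at 0 in *pkl-1*, *pkr2-2* and Col-0, and the part of library preparation in the organelle values was not tested.

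Nuclear genes that serve the same organelle showed no such shift. All 19 counted photosynthesis genes of the nucleus were within the fold (median 0.02), among them *RBCS1A*, a small subunit of Rubisco, at 2357 FPKM in the double mutant and 2092 FPKM in *pkl-1* (0.17). The 11 genes for sigma factors, phage-type polymerases and GLK factors that govern plastid transcription were within the fold too (median 0.20), with *GLK1* highest at 1.64 FPKM in the double mutant and 0.518 FPKM in *pkl-1* (0.80) and *SIG5* at 0.73. *PORB* (*AT4G27440*), which makes chlorophyllide in the light, is not in that list and measured 16.3 FPKM in the double mutant and 119.7 FPKM in *pkl-1* (-2.80), with reads shared in part with the overlapping *AT4G27450*. *ELIP1*, an early light-induced protein of the thylakoid chosen after its values were seen, was at 296 FPKM in double-mutant seeds and 87.0 FPKM in *pkl-1* (1.76).

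**Figure D4:**
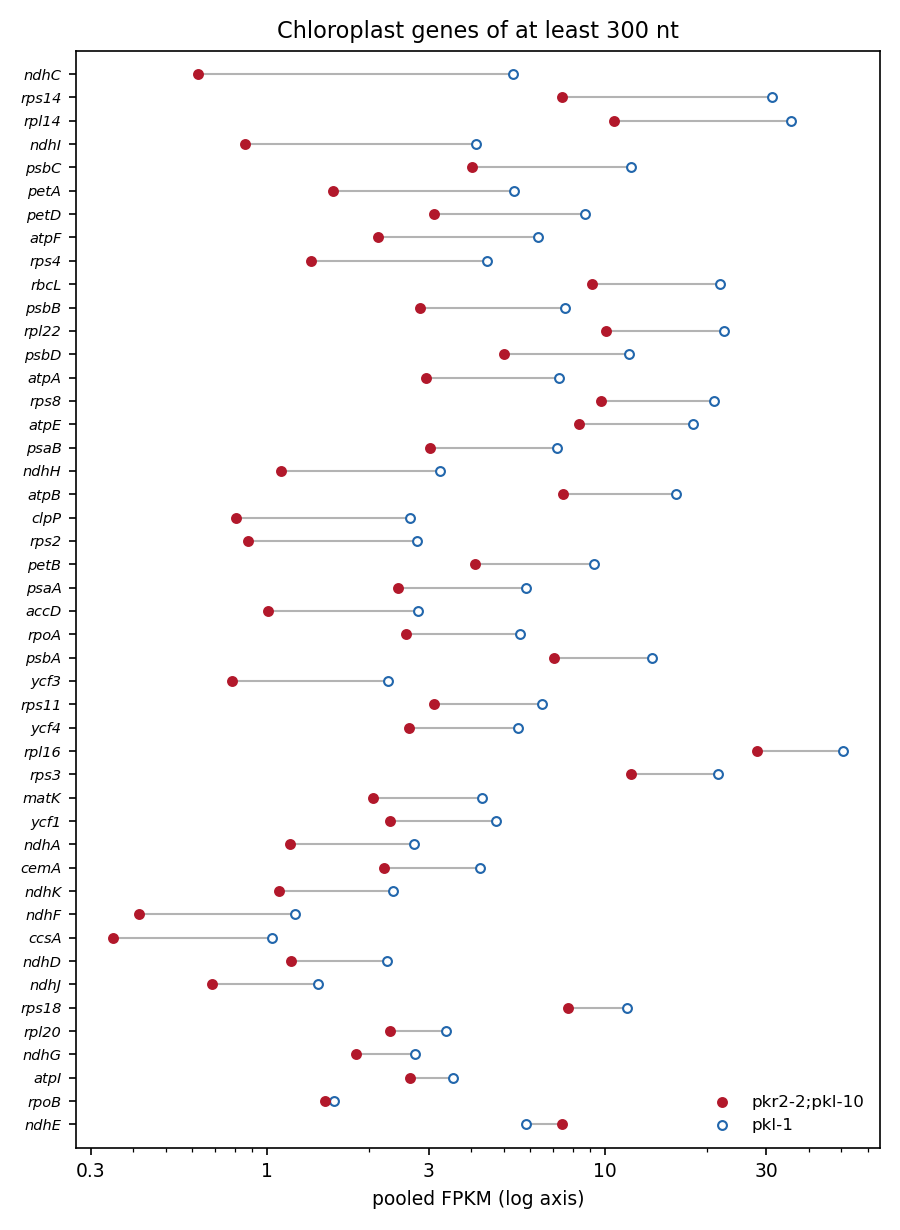
Pooled FPKM of the 46 counted chloroplast-encoded genes with transcripts of at least 300 nt, on a log axis, filled circles for the double mutant and open circles for *pkl-1*. The value of the double mutant is the lower one in 45 genes, the exception being *ndhE*.

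The largest single differences include genes of known function and several that are annotated only by their locus. Besides *MAF5* and *LHY*, the genes that rose most were *AT5G51190*, annotated as an Integrase-type DNA-binding protein, with 11.4 FPKM in the double mutant and 0.222 FPKM in *pkl-1* (3.34), and *TCH3*, a calmodulin-like gene induced by touch, with 41.0 FPKM in the double mutant and 4.77 FPKM in *pkl-1* (2.86). The calcium-binding EF-hand gene *AT5G39670* had 12.8 FPKM in the double mutant and 1.01 FPKM in *pkl-1* (2.78). *QQS*, an orphan gene of *Arabidopsis* that affects starch content, had 11.7 FPKM in the double mutant and 1.03 FPKM in *pkl-1* (2.65).

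*TCH3*, *AT5G39670* and *AT5G51190* each overlap another annotated gene, and without strand the reads of the overlap cannot be told apart. The non-coding *AT2G08665* and *AT4G06665* were also among the largest rises, and each likewise overlaps a protein-coding gene. *DIR1*, a lipid transfer protein of systemic resistance, measured 24.9 FPKM in the double mutant and was listed at 0 in every other genotype. It overlaps *AT5G48480*, so its reads have the same limit, and a 0 can be a failed estimate. *AT3G06365* was at 2246 FPKM in double-mutant seeds and likewise listed at 0 in the others.

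Of the falls, the largest in a gene above 0 in both was *AT3G01345*, an uncharacterized protein gene on chromosome 3, with 0.965 FPKM in the double mutant and 126.7 FPKM in *pkl-1* (-6.02). Its counting interval for the log2 ratio was -7.41 to -6.68. In the tables against the wild type it was at 105.9 FPKM in *pkl-1* and 0.385 FPKM in Col-0, and at 0.848 FPKM in the double mutant and 0.410 FPKM in Col-0. *AT1G27565* followed with 0.659 FPKM in the double mutant and 66.1 FPKM in *pkl-1* (-5.34), and against the wild type with 55.3 FPKM in *pkl-1* and 2.80 FPKM in Col-0. For *AT3G01345* the *pkl-1* value was the one far from Col-0. The double mutant was the one far from Col-0 for *AT1G75945*, at 2.94 FPKM in the double mutant and 63.7 FPKM in *pkl-1* (-4.04), which had 2.58 FPKM in the double mutant and 42.3 FPKM in Col-0.

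The DnaJ-domain gene *AT1G56300* fell to 1.62 FPKM in the double mutant, against 22.5 FPKM in *pkl-1* (-3.17), and *AT1G70335* to 1.93 FPKM, against 29.8 FPKM in *pkl-1* (-3.40). *AT1G04503*, listed at 0 in the double mutant and at 37.2 FPKM in *pkl-1*, overlaps the linker histone gene *H1.1*. *AT4G17470*, an alpha/beta-hydrolase gene that the study names for this comparison, measured 0.133 FPKM in the double mutant and 1.47 FPKM in *pkl-1* (-1.13), resting on about 9 and 76 fragments in that order.

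Genes past the fold here were then read in the table of *pkr2-2* against Col-0. Of the 436 genes higher in the double mutant, 103 (23.6%) were also higher in *pkr2-2*, which is 17.7% of the 583 higher there, and 15 were lower. Of the 416 lower genes, 87 (20.9%) were also lower in *pkr2-2*, which is 23.2% of the 375 lower there, and 25 were higher. Without organelle genes, non-coding transcripts and genes at 0 in any of the 4 genotype values, 61 of 250 higher genes (24.4%) and 52 of 227 lower genes (22.9%) went the same way, and 3 and 1 the opposite way. The share of all counted genes past the fold in *pkr2-2* was 3.22% higher and 2.07% lower. Most genes past the fold in one comparison were therefore not past it in the other.

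The shared genes included *GRP7*, *FKF1*, *QQS*, *PORB*, *DIN10* and *AT1G56300* of the genes above. *QQS* was at 10.11 FPKM in *pkr2-2* and 0.318 FPKM in Col-0 (3.07). Others, chosen after their values were seen, were *MEE14*, at 4.21 FPKM in the double mutant and 29.1 FPKM in *pkl-1* (-2.53) and at 4.40 FPKM in *pkr2-2* and 53.1 FPKM in Col-0 (-3.33), and the ring-finger gene *RHA3B*, at 23.1 FPKM in the double mutant and 152.9 FPKM in *pkl-1* (-2.68) and at 28.3 FPKM in *pkr2-2* and 112.8 FPKM in Col-0 (-1.96). The MADS-box gene *AT3G12510* was at 26.3 FPKM in double-mutant seeds and 5.18 FPKM in *pkl-1* (2.14), and at 27.7 FPKM in *pkr2-2* and 0.00962 FPKM in Col-0 (4.83). *HYH*, a bZIP factor of light signalling, was higher in both, by 2.01 in the double mutant over *pkl-1* and by 1.78 in *pkr2-2* over Col-0.

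Past the fold in the double mutant over *pkl-1* but within it in *pkr2-2* over Col-0 were *LHY* (3.19 and 0.62), *TCH3* (2.86 and 0.27), *COR15A* (2.33 and -0.35) and *ERF8* (2.14 and -0.16), an ethylene response factor. In the other direction, *KMD1* (-0.62 and -3.69), the small auxin-responsive gene *AT2G21220* (0.17 and 2.95), the lectin gene *AT1G78850* (0.10 and -3.08) and the sugar transporter gene *STP1* (-0.31 and -2.57) were past the fold in *pkr2-2* over Col-0 and within it in the double mutant over *pkl-1*. The differences between the comparisons were not tested. *ERF8* and *COR15A* were low in *pkl-1* against the wild type, *ERF8* with 3.03 FPKM in *pkl-1* and 11.4 FPKM in Col-0. In the set without organelle genes, non-coding transcripts and genes at 0, the genes that went opposite ways were *AT5G66335*, *AT1G19394* and *AT1G68600*, higher in the double mutant and lower in *pkr2-2*, and *AT5G10580*, lower in the double mutant and higher in *pkr2-2*.

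**Figure D5:**
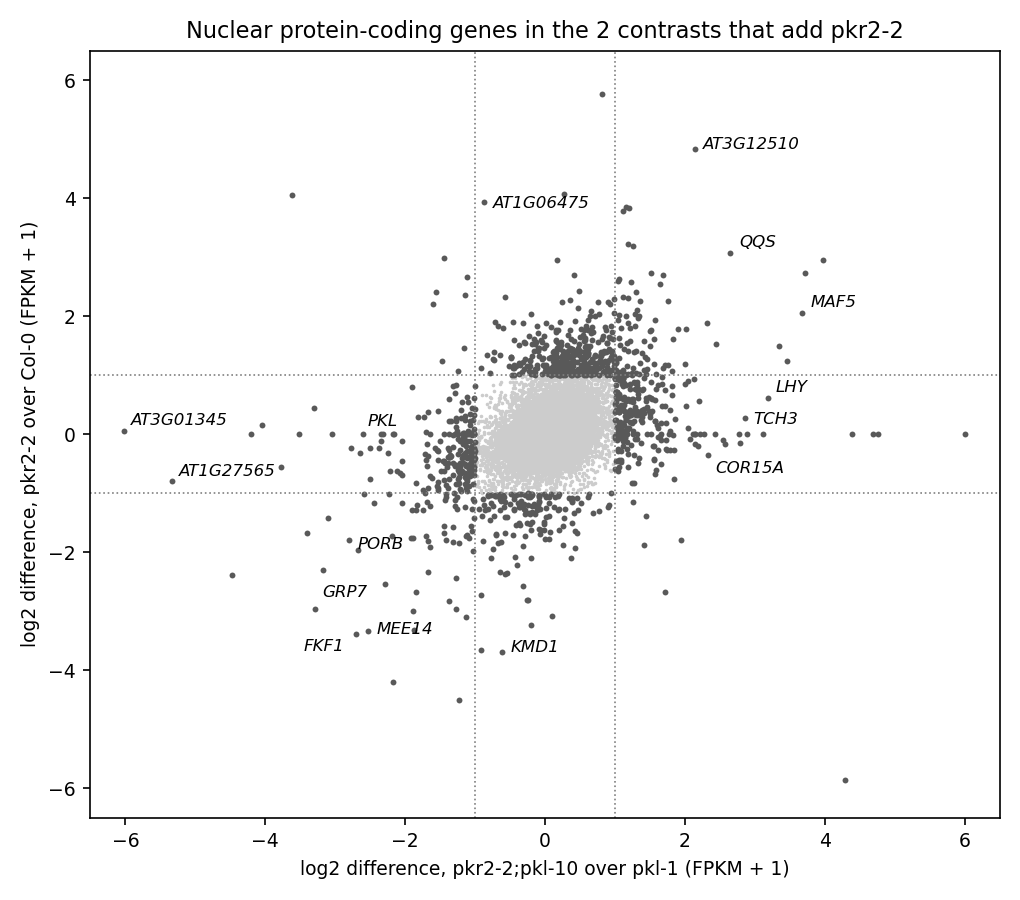
Differences in log2(FPKM + 1) of nuclear protein-coding genes in the double mutant over *pkl-1* (horizontal) and in *pkr2-2* over Col-0 (vertical), which share no library, with dotted lines at the fold and dark points past it in either, 2 of 18268 points lying outside the axes. *GRP7*, *FKF1* and *MEE14* sit low in both, *QQS* and *AT3G12510* high in both, and *LHY*, *TCH3* and *COR15A* are past the fold on the horizontal axis and within it on the vertical one.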

How the data were processed

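mRNA of whole seeds was sequenced in 2 samples for each of 4 genotypes. The authors aligned reads to TAIR10.1 with TopHat2 2.1.1 and computed FPKM with Cufflinks 2.2.1.3 (per the submitters' processing notes). The deposited table holds 1 pooled FPKM per genotype. It also holds the authors' own log2 fold changes, test statistics, p-values, q-values and status, which were not used. FPKM is scaled separately in each table, so values were compared only within a table.

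Differences are log2((double mutant FPKM + 1)/(*pkl-1* FPKM + 1)), which understates changes of low genes. Genes with at least 1 FPKM in either genotype were counted, and a difference of 1 or more was past the fold. Of 38209 genes, 38158 matched the RefSeq annotation (TAIR10.1), the source of positions, products and promoters. Primers came from the study's supplement. Fragments were estimated from transcripts of at least 2000 nt and given for those of at least 600 nt, with 300 nt taken off the length.

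The rule for named genes took *PKL*, *PKR2*, the 12 largest rises and falls among nuclear transcripts of at least 300 nt, list members past the fold (at most 4 a list, otherwise the extremes) and *AT4G17470*. Not every gene under it is described above. Left out were the falls *AT4G00975* (-4.29), *AT3G02765* (-3.07) and *AT4G05815* (-2.96), and some list members, such as the pectin methylesterase inhibitor gene *AT1G50325* (-1.70) and the lyase genes past the fold. Outside this rule, all clock and clock output genes past the fold are named, as the rule for promoters has them, and further genes were named after their values were seen. Members and lists were chosen with earlier results of these data known. Alternatives were other pseudocounts, folds, filters and centrings and the difference of the tables against Col-0. The calculations were tested on simulated data and run with scipy 1.17.1, pandas 2.3.3 and numpy 2.4.6 under Python 3.11.15, with figures from matplotlib 3.10.9.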

Additional observations from a re-analysis of the deposited data

How the results depend on the processing

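No paired analysis was possible because the deposited columns pool both samples of a genotype, and for the same reason no replicate could be left out. Counts of genes past the fold depended on the treatment of low values. Genes higher in the double mutant numbered 436, against 814 with a pseudocount of 0.1 FPKM, 108 with 5 FPKM, 76 at a fold of 2 on the log2 scale, 167 with a mean of at least 5 FPKM, and 279 among protein-coding nuclear genes above 0 in both, a set chosen after seeing the data. Under the same settings the genes that were lower numbered 416, against 625, 156, 98, 203 and 232, and the share of genes past the fold was 4.47%, against 7.56%, 1.39%, 0.914%, 2.72% and 2.82%. The share of those that were higher was 51.2%, and 40.9% with a pseudocount of 5 FPKM. The evening median was -1.23 with a pseudocount of 0.1 FPKM and -0.63 with 5 FPKM, and the chloroplast median -0.52 with 5 FPKM. With 0.1 FPKM, *PKL* was at -2.67 and *PKR2* at -3.52. At a fold of 2, 10.5% of the higher genes were past it in the same direction in *pkr2-2*, against 23.6%. Taking the difference of the tables against Col-0 gave 392 higher and 386 lower genes, of which 390 and 383 were the same genes. Centring on the nuclear median gave 389 higher and 448 lower genes, and moved list medians that lay at 0.02 to below 0, as for nuclear photosynthesis and abscisic acid response (-0.03 each). With a pseudocount of 5 FPKM, a fold of 2, a mean of at least 5 FPKM or centring, lower genes outnumbered higher ones.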
